A study of Mus musculus with 12 samples.

Results

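A set of 9 complement genes, of the 55376 gene symbols in the count table, was followed through all 12 samples of the study. They were chosen by symbol: C1qa, C1qb and C1qc encode the chains of C1q, C3 is the central component, Serping1 encodes the C1 inhibitor, C3ar1 and C5ar1 encode the receptors for the anaphylatoxins C3a and C5a, and Itgam and Itgb2 encode the chains of complement receptor 3. RNA-Seq was performed on oligodendrocytes sorted by FACS as living O1+ CD45- cells from brains of C57BL/6 mice at postnatal day 40, and each sample pooled 2 brains. For the p21CIP1 knockout line the paper lists a strain other than C57BL/6, with backcrosses. O1 is a surface glycolipid of differentiated oligodendrocytes, CD45 is a surface protein of leukocytes, and the gating scheme also left out cells with CD11b, the protein encoded by Itgam. There were 4 samples of WT mice (replicates 1, 3, 5 and 6), 4 of Cnp-Cre Jab1fl/fl mice (replicates 1 to 4, called Jab1 mutants here), and 4 of Cnp-Cre Jab1fl/fl p21CIP1-/- mice (replicates 1, 2, 3 and 5, called double mutants). Jab1, or Cops5, encodes a subunit of the COP9 signalosome, and the Cnp-Cre transgene recombines it in late oligodendrocyte precursors and in oligodendrocytes, and also in Schwann cells. Microglia and endothelial cells are not targets of this transgene, whereas p21CIP1, encoded by the cell cycle inhibitor gene Cdkn1a, is missing from every cell of the double mutants.

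Complement is a cascade of plasma and tissue proteins that marks cells and debris for removal. C1q binds its target and activates the proteases C1r and C1s, which cleave C4 and C2, and the resulting convertase cleaves C3. Fragments of C3 on the target are taken up through complement receptor 3, while the released peptides C3a and C5a act on their receptors, and the C1 inhibitor blocks C1r and C1s. In the brain, C1q and complement receptor 3 are known mainly from microglia, where they take part in the removal of synapses and myelin debris, and C4 and clusterin are known from astrocytes and oligodendrocytes.

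The 3 C1q genes lie side by side on the minus strand of mouse chromosome 4 (GRCm38), C1qb at chr4:136880129-136886187, C1qc at chr4:136889804-136893065 and C1qa at chr4:136895917-136898803, a stretch of 18675 bases in all. Itgam lies at chr7:128062640-128118491, and Itgax, which encodes the alpha chain of complement receptor 4, begins 11055 bases after it on the same strand. RefSeq promoter entries (GRCm38.p6, 300 bases from 250 before to 50 after the start) were found for 6 of the 9 genes, namely C1qb, C1qc, C3, C3ar1, C5ar1 and Itgam. The sequences below are those of members that were called in Jab1 mutants, limited to the bases upstream of the gene in GENCODE, which left out 151 bases for C1qc and 4 for C3ar1. They are chr4:136886201-136886450, minus strand, for C1qb, chr4:136893066-136893164, minus strand, for C1qc, chr6:122856162-122856407, minus strand, for C3ar1, and chr7:128062390-128062639, plus strand, for Itgam. Capitals mark matches on either strand to GAGGAA, the core of sites for Ets factors such as PU.1, a transcription factor of myeloid cells.
C1qb: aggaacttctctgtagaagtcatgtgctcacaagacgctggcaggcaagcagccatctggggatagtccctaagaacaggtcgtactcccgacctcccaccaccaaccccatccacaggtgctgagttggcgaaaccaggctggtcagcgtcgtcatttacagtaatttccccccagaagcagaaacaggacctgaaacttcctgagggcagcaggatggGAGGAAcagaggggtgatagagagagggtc
C1qc: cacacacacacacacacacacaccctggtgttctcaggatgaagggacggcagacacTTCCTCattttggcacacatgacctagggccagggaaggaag
C3ar1: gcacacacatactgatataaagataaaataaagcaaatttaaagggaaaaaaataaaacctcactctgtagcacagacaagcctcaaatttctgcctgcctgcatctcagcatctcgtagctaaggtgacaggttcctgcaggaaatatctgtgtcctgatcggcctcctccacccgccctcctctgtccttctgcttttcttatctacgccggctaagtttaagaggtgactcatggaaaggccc
Itgam: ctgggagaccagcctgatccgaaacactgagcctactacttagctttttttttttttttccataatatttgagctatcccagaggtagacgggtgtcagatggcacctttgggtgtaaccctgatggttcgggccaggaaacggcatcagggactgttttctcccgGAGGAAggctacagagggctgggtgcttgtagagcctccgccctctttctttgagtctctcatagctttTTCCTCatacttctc

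Of the 6 promoter entries, 3 held GAGGAA, those of C1qb, C1qc and Itgam, and 28.3% of all 32851 entries held it. The matches began 30 bases before the RefSeq start in C1qb, 193 bases before it in C1qc, and 84 and 15 bases before it in Itgam. The C3ar1 entry held none. GAAANNGAA, an interferon response element, was found in 1 entry, that of C5ar1, 66 bases before its start, against 8.56% of all entries. TTCNNNGAA, a STAT site, and GGGANTTTC, an NF-kB site, were found in 0 of the 6 entries, against 8.30% and 1.11% of all entries. Both strands were searched, none of the matches shown overlaps another, and a match is a description of the letters only.

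Total counts ranged from 61485556 to 153495112 per sample, so that 1 CPM (counts scaled to library size with TMM factors) stood for 72.8 to 148 counts. Jab1 (Cops5) was at 42.5 to 86.1 CPM in Jab1 mutants, 45.5 to 87.5 CPM in double mutants and 48.4 to 139 CPM in WT, and it was not called lower (adjusted p = 0.349 in Jab1 mutants and 0.424 in double mutants, edgeR). Cdkn1a was at 366 to 603 CPM in Jab1 mutants, 63.3 to 106 CPM in double mutants and 17.0 to 89.0 CPM in WT. Against WT it was called higher in Jab1 mutants (adjusted p = 0.00440, edgeR) and not called in double mutants (adjusted p = 0.394, edgeR). The exons that each allele lacks are not given in the sources used here, and counts over a whole gene include reads outside a deleted part, so these values do not check the labels. By qPCR in sorted oligodendrocytes, the paper reports lower Cops5 in Jab1 mutants and no detectable Cdkn1a in double mutants. Mature oligodendrocyte markers (11 genes, Mbp and Mog among them) summed to 47600 to 112000 CPM in WT, 8420 to 35300 CPM in Jab1 mutants and 16600 to 53400 CPM in double mutants. RNA of these markers was thus present in every group, which does not give the purity of the cells. In Jab1-mutant replicate 3, at 8420 CPM, astrocyte markers summed to 5920 CPM. Of the 11, 6 were called lower in Jab1 mutants than in WT (median log2 fold change -2.21, edgeR), where 2.46% of all genes tested were. In double mutants 0 were called lower than in WT (median -1.33, edgeR), where only 3 of all 17716 genes tested were. The counts of the 2 comparisons thus cannot be set against each other. Markers of other cells were present too: 20 microglia markers summed to 155 to 346 CPM in WT, 1140 to 2620 CPM in Jab1 mutants and 418 to 17200 CPM in double mutants, where the highest sum belonged to replicate 3 and the others were at 418, 850 and 1870 CPM. Double-mutant replicate 3 stood apart in these markers, and results that rest on it are given with and without it. In a bulk sample, fewer cells of a type and less RNA per cell cannot be told apart.

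The C1q genes were higher in Jab1 mutants than in WT in every sample, and all 3 were called. C1qa was at 5.14, 2.93, 8.67 and 3.0 CPM in WT replicates 1, 3, 5 and 6, at 134, 42.7, 61.7 and 89.1 CPM in Jab1-mutant replicates 1 to 4, and at 20, 57.4, 836 and 77.8 CPM in double-mutant replicates 1, 2, 3 and 5. C1qb, in the same order, was at 18.6, 5.10, 37.7 and 30.2 CPM in WT, at 545, 191, 334 and 707 CPM in Jab1 mutants, and at 67.0, 219, 3870 and 473 CPM in double mutants. C1qc was at 12.4, 6.44, 29.7 and 27.6 CPM in WT, at 338, 115, 141 and 460 CPM in Jab1 mutants, and at 81.4, 156, 3230 and 400 CPM in double mutants. Neither mutant group overlapped WT for any C1q gene, the mutant groups overlapped each other, and double-mutant replicate 3 was the highest of the 12 samples for each. Means were 81.8 CPM ± 39.5 (SD, n = 4) against 4.93 ± 2.69 for C1qa, 444 ± 227 against 22.9 ± 14.2 for C1qb, and 264 ± 165 against 19.0 ± 11.4 for C1qc. The log2 fold changes of Jab1 mutants against WT were 4.18 ± 0.50 (SE, adjusted p = 0.00171), 4.41 ± 0.64 (adjusted p = 0.00374) and 3.92 ± 0.62 (adjusted p = 0.00505), by edgeR's quasi-likelihood test over 17716 genes.

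**Figure D1:**
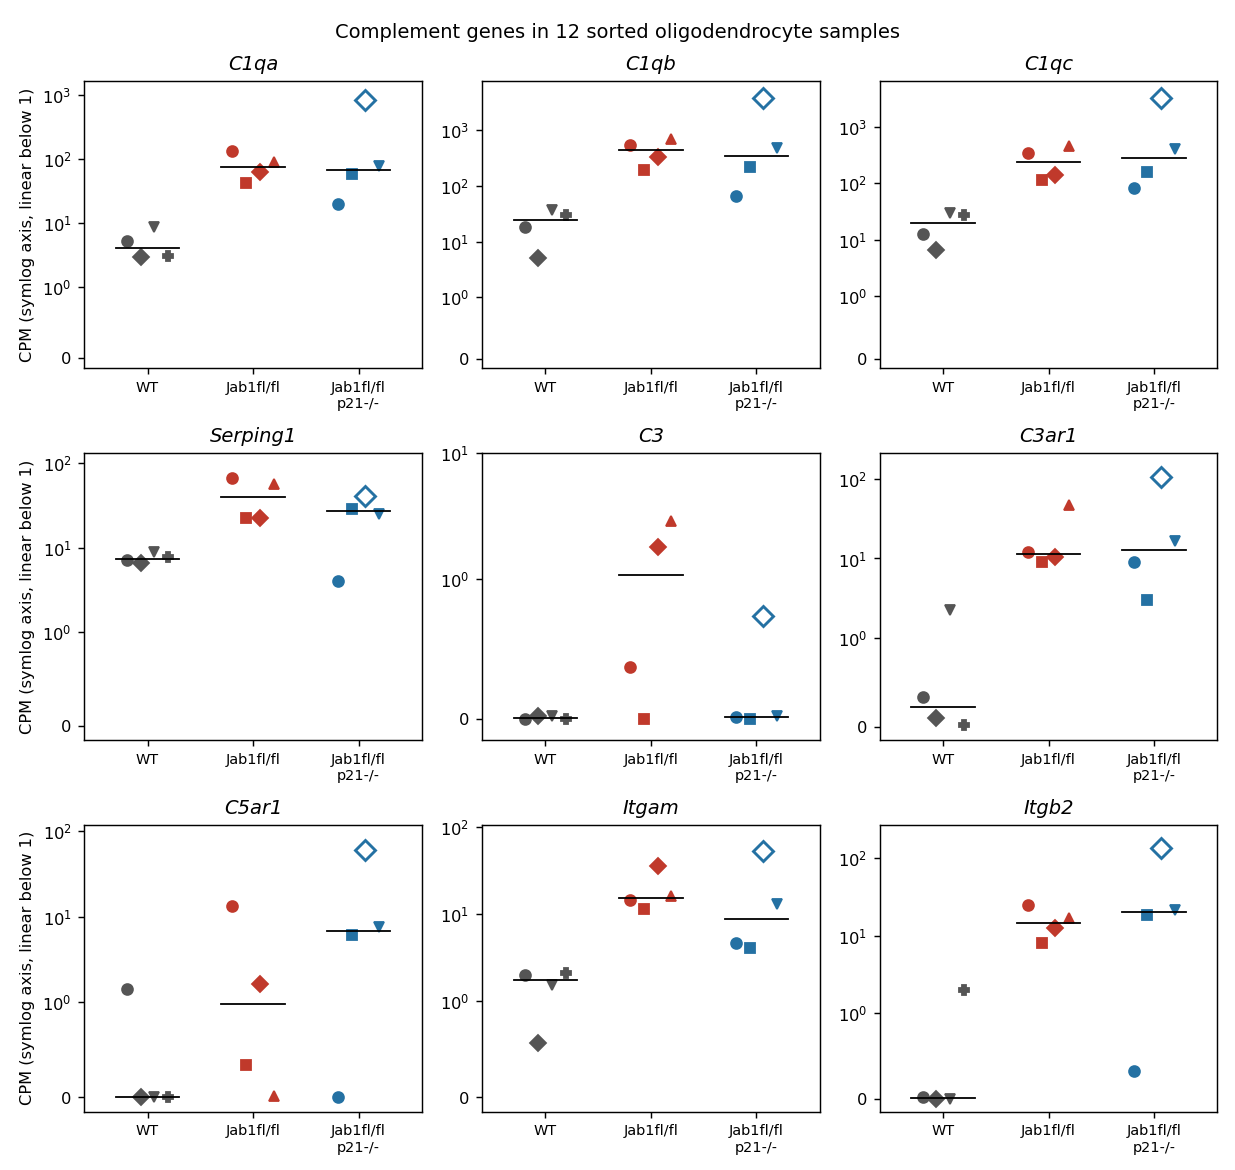
CPM of the 9 complement genes in each sample, on an axis that is linear below 1 and logarithmic above. Point shapes are replicate numbers, bars are medians of 4 samples, red is Cnp-Cre Jab1fl/fl, blue is Cnp-Cre Jab1fl/fl p21CIP1-/-, and the open diamond is double-mutant replicate 3, which reached 836 CPM for C1qa against 77.8 CPM in the next double mutant.

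Serping1, whose product inactivates C1r and C1s, was also higher in every Jab1 mutant than in every WT sample. It was at 7.05, 6.65, 8.96 and 7.73 CPM in WT, at 66.2, 22.7, 22.6 and 56.8 CPM in Jab1 mutants, and at 3.98, 28.5, 41.1 and 25.1 CPM in double mutants. The spread in WT was narrow, with a mean of 7.60 CPM ± 1.01 (SD, n = 4), and double-mutant replicate 1 lay below all WT samples whereas the other 3 double mutants lay above them. The log2 fold change of Jab1 mutants against WT was 2.59 ± 0.44 (SE, adjusted p = 0.00682, edgeR).

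C3 was close to absent in most samples. Its counts were 0, 3, 2 and 0 in WT, 30, 0, 130 and 225 in Jab1 mutants, and 1, 0, 78 and 2 in double mutants, the largest of these being 2.86 CPM. It did not reach 1 CPM in 4 samples and was left out of the test over all genes. The pooled rate in Jab1 mutants was 95.9 times that in WT (95% interval 40.7 to 297, from 385 and 5 counts and for counting error only), but Jab1-mutant replicate 2 had no count and the groups overlapped. A two-sided exact permutation test on log2(CPM + 1) gave p = 0.143 for Jab1 mutants against WT, 0.543 for double mutants against WT and 0.257 for the mutant groups against each other, where 0.0286 is the smallest p that 4 against 4 samples allow.

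Of the anaphylatoxin receptors, C3ar1 was called in Jab1 mutants and C5ar1 was not. C3ar1 was at 0.340, 0.101, 2.26 and 0.0222 CPM in WT, at 12.2, 8.99, 10.5 and 47.5 CPM in Jab1 mutants, and at 8.99, 3.05, 106 and 16.8 CPM in double mutants. All mutant samples lay above all WT samples, and WT replicate 3 and WT replicate 6 held 15 and 2 counts. The log2 fold change of Jab1 mutants against WT was 5.01 ± 1.27 (SE, adjusted p = 0.0356, edgeR). The call was not kept in 8 of 16 alternatives, among them leaving out WT replicate 1, 3 or 6 or Jab1-mutant replicate 1, 3 or 4, with adjusted p up to 0.102 without Jab1-mutant replicate 4. C5ar1 was at 1.42 CPM in WT replicate 1 with no count in the other WT samples, at 13.2, 0.341, 1.62 and 0.0127 CPM in Jab1 mutants, and at 0, 6.07, 59.1 and 7.65 CPM in double mutants. Its levels ranged from 1 to 1069 counts within Jab1 mutants, and the groups overlapped (log2 fold change against WT 3.53, 95% interval -1.56 to 8.62, adjusted p = 0.418, edgeR).

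Of the chains of complement receptor 3, Itgam was called in Jab1 mutants, and Itgb2 was not called although every Jab1 mutant exceeded every WT sample. Itgam, the gene of CD11b, was at 1.95, 0.567, 1.5 and 2.06 CPM in WT, at 14.4, 11.5, 35.8 and 16.1 CPM in Jab1 mutants, and at 4.6, 4.02, 53.1 and 13 CPM in double mutants. Its log2 fold change of Jab1 mutants against WT was 3.81 ± 0.63 (SE, adjusted p = 0.00650, edgeR). Both mutant groups lay above WT throughout. Gm49368, a read-through gene model on the same strand, covers 70.0% of the Itgam exon bases and held 0 to 3 counts per sample, and how shared reads were assigned is not given in the sources used here, so the level of Itgam is uncertain. Itgb2, which encodes CD18, was at 0.0189, 0, 0 and 1.96 CPM in WT, at 25.2, 8.04, 12.4 and 17.1 CPM in Jab1 mutants, and at 0.324, 18.6, 136 and 21.5 CPM in double mutants. WT replicate 6 alone held 176 of the WT counts, the other WT samples at most 2. The log2 fold change of Jab1 mutants against WT was 5.09 ± 1.76 (SE, adjusted p = 0.110, edgeR), and without WT replicate 6 Itgb2 was called (adjusted p = 0.00258).

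Together, 6 of the 8 members tested were called higher in Jab1 mutants than in WT and 0 were called lower, where 5.19% of all 17716 genes were called higher and 2.46% lower. In 7 of the 8, all but C5ar1, every Jab1 mutant lay above every WT sample, which held for 8.73% of all genes. The median log2 fold change was 4.05 over the 8 tested members and 0.02 over all genes tested. C1qa, C1qb, C1qc and Itgam were called in all 16 alternatives, and Serping1 in 15. Since members that passed the filter may have passed it through the mutant samples in which they were high, the count describes those 8 genes and not the family.

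**Figure D2:**
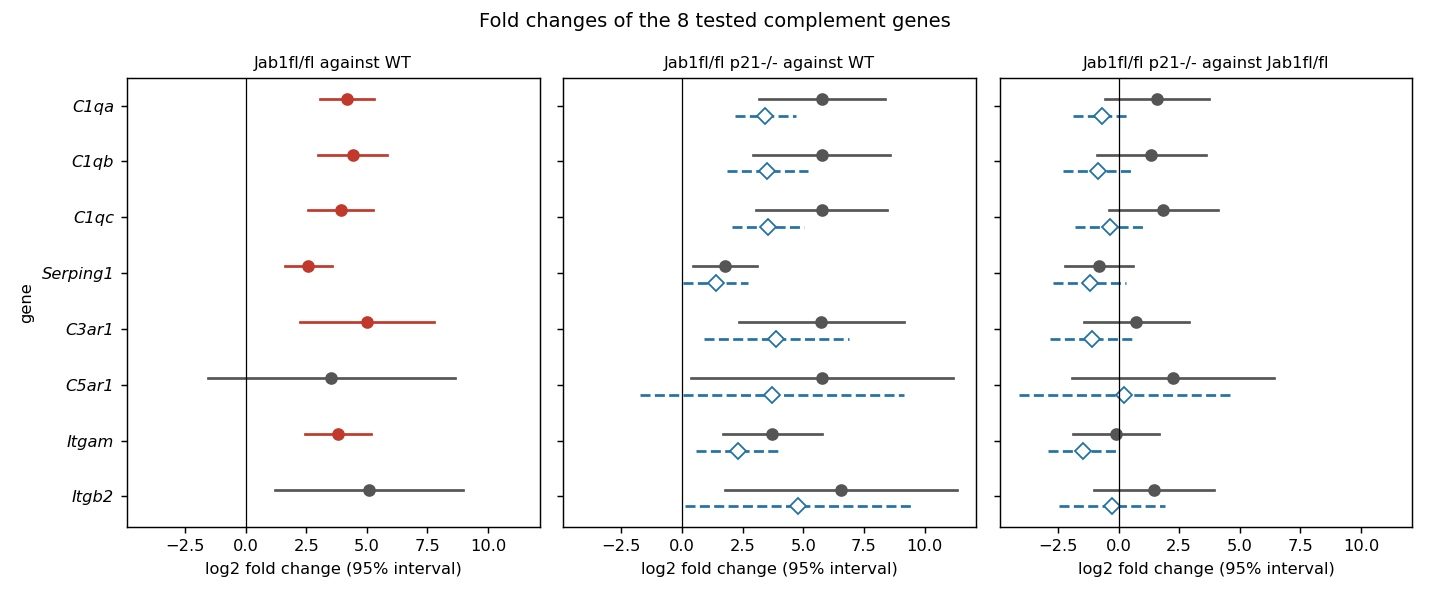
Log2 fold changes of the 8 tested complement genes with 95% intervals, one panel for each comparison. Filled points use all 8 samples, red where the adjusted p was under 0.05, and open blue diamonds with dashed lines leave out double-mutant replicate 3, which moved C1qa from 1.58 to -0.70 in the panel of double mutants against Jab1 mutants.

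Double mutants against WT showed higher fitted levels of every tested member, with wider spread and no call. By edgeR, 0 of 8 members had an adjusted p under 0.05, where 0.175% of all genes were called higher, and 8 of 8 had an unadjusted p under 0.05 in the higher direction, where 7.82% of all genes did. DESeq2 called 5 of the 8, C1qa, C1qb, C1qc, C3ar1 and Itgam, where it called 3.80% of all genes higher, and limma-voom called 0. The log2 fold changes of C1qa, C1qb and C1qc were 5.76 ± 1.18 (SE, adjusted p = 0.0874), 5.76 ± 1.28 (adjusted p = 0.102) and 5.77 ± 1.23 (adjusted p = 0.0938, edgeR). Every double mutant lay above every WT sample for 5 of the 8, the C1q genes, C3ar1 and Itgam, against 4.01% of all genes. The members without this separation were Serping1, C5ar1 and Itgb2, and in each of them double-mutant replicate 1 lay within or below the WT range. The median log2 fold change was 5.76 over the 8 members and 0 over all genes.

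Replicate 3 of the double mutants set much of the size of these differences. Without it, the log2 fold changes against WT were 3.44 ± 0.57 for C1qa (10.9-fold in place of 54.0-fold, adjusted p = 0.0628), 3.51 ± 0.75 for C1qb (adjusted p = 0.136) and 3.53 ± 0.67 for C1qc (adjusted p = 0.0982, edgeR). The count of members called stayed at 0, against 0.0395% of all genes called higher. An unadjusted p under 0.05 was found for 7 of 8 members, against 6.09% of all genes, and the 3 remaining double mutants lay above WT in 5 of 8, against 5.42% of all genes. The median over the 8 members was 3.52. Leaving out double-mutant replicate 1, the lowest of the double mutants for the C1q genes, had the opposite effect: 4 members were called, C1qa, C1qb, C1qc and Serping1, with adjusted p from 0.0264 to 0.0344, where 1.14% of all genes were called higher.

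Between double mutants and Jab1 mutants no member differed beyond the spread between samples. With edgeR, DESeq2 and limma-voom alike, 0 of 8 were called, as were 0% of all genes by edgeR, and 0 of 8 had an unadjusted p under 0.05, where 5.0% of all genes did. The groups overlapped for all 8. C1qc had the smallest p among the C1q genes, with a log2 fold change of 1.85 and a 95% interval from -0.41 to 4.11, and C1qa and C1qb were at 1.58 (-0.57 to 3.73) and 1.36 (-0.88 to 3.60). Without double-mutant replicate 3 these values became -0.35 (-1.78 to 1.07), -0.70 (-1.88 to 0.47) and -0.86 (-2.31 to 0.60). Serping1 had a log2 fold change of -0.82 (-2.21 to 0.58) with all samples and -1.19 (-2.69 to 0.32) without that replicate. Itgam moved from -0.09 (-1.87 to 1.68) to -1.46 (-2.92 to -0.01), with an unadjusted p of 0.0489 and an adjusted p of 0.949 (edgeR). Each of these intervals reaches changes of several fold in at least 1 direction, and most reach much less in the other. The comparison thus does not show that the levels were alike. Both mutant groups were compared with the same WT samples.

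C1q levels moved together with microglia markers. Of 20 microglia markers, 18 were called higher in Jab1 mutants than in WT (median log2 fold change 3.66, edgeR), against 5.19% of all genes. In double mutants against WT 0 were called (median 4.89, edgeR), against 0.175% of all genes called higher. Without double-mutant replicate 3 the latter count was also 0, against 0.0395% of all genes, and the median 2.46. Ptprc, the gene of CD45, by which the sort left cells out, was at 0 to 1.57 CPM in WT, 31.7 to 100 CPM in Jab1 mutants and 3.20 to 97.9 CPM in double mutants. On reanalysis of sorted cells of all 3 genotypes, the paper saw no overt contamination with CD45+ cells. It also reports that the sorted cells were not purely O1+ on reanalysis, and it does not fully exclude a small contamination by other cells. The sum of the 3 C1q genes was 36.2, 14.5, 76.1 and 60.8 CPM in WT, 1020, 349, 536 and 1260 CPM in Jab1 mutants, and 168, 433, 7940 and 951 CPM in double mutants. Divided by the summed microglia markers of the same sample, it was 0.0934 to 0.241 in WT, 0.296 to 0.541 in Jab1 mutants and 0.403 to 0.510 in double mutants. On this ratio, WT lay below both mutant groups and double-mutant replicate 3, at 0.460, lay within the range of its group. The mean ratio was 0.183 ± 0.0653 (SD, n = 4) in WT, 0.383 ± 0.113 in Jab1 mutants and 0.471 ± 0.0507 in double mutants, while the C1q sum itself had means of 46.9, 791 and 2370 CPM. Without double-mutant replicate 3, the mean of the double mutants was 517 CPM for the C1q sum, below that of Jab1 mutants, and 0.474 for the ratio. The part of microglial RNA in the results was not tested.

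**Figure D3:**
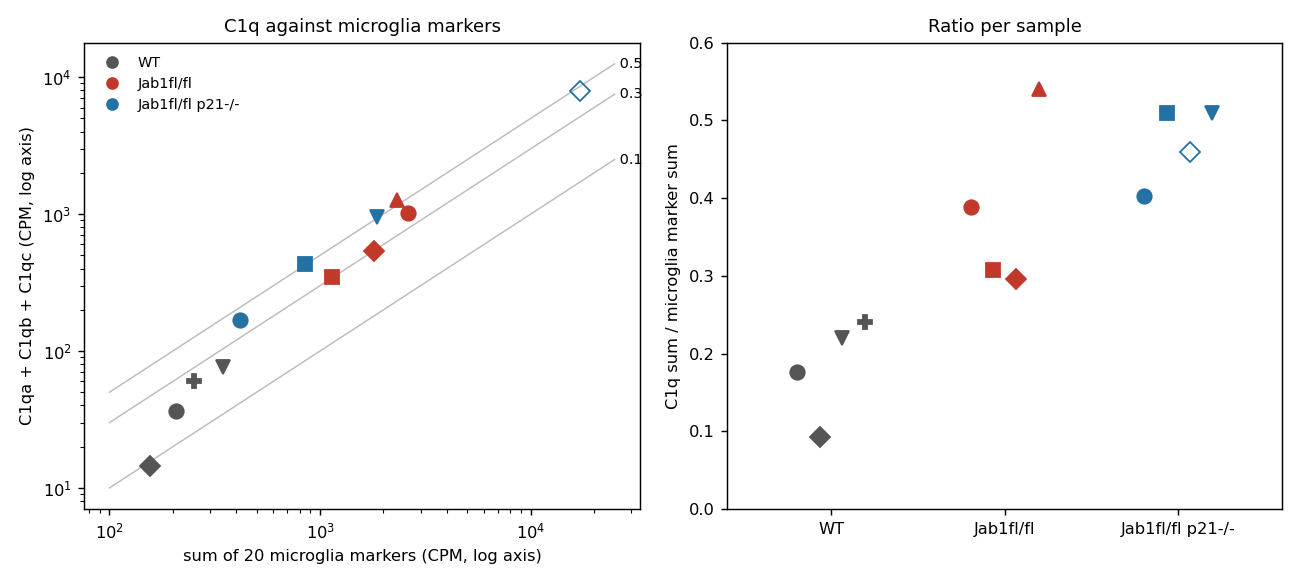
Left, summed CPM of C1qa, C1qb and C1qc against the summed CPM of 20 microglia markers in each of 12 samples, both axes logarithmic, with grey lines of constant ratio. Right, the ratio of the sums per sample, 0.0934 to 0.241 in WT (grey), 0.296 to 0.541 in Cnp-Cre Jab1fl/fl (red) and 0.403 to 0.510 in Cnp-Cre Jab1fl/fl p21CIP1-/- (blue, open diamond replicate 3).

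The other members did not keep the same proportion. Per 100 CPM of microglia markers, Serping1 was at 2.59 to 4.29 CPM in WT, 1.25 to 2.53 in Jab1 mutants and 0.238 to 3.36 in double mutants, so that WT had the highest mean on this scale (3.34 ± 0.719, SD, n = 4) and the lowest in CPM. In double-mutant replicate 3, where microglia markers were highest, Serping1 was at 0.238, the lowest of the 12 samples. Itgam was at 0.366 to 0.947 in WT, 0.550 to 1.98 in Jab1 mutants and 0.308 to 1.10 in double mutants, ranges that overlap each other. C3ar1 ranged from 0.00881 to 0.653 in WT and from 0.467 to 2.05 in Jab1 mutants. Other cell types also differed: 7 endothelial markers summed to 299 to 675 CPM in WT, 697 to 4640 CPM in Jab1 mutants and 577 to 4420 CPM in double mutants, and 6 mural cell markers to 131 to 257, 277 to 731 and 104 to 573 CPM. In Jab1-mutant replicates 1 and 4 the endothelial sums were 4640 and 3540 CPM and Serping1 was at 66.2 and 56.8 CPM, while replicates 2 and 3 were at 697 and 2340 CPM with Serping1 at 22.7 and 22.6 CPM. In double-mutant replicate 5, with an endothelial sum of 4420 CPM, Serping1 was at 25.1 CPM. Monocyte and neutrophil markers (8 genes) summed to at most 16.7 CPM except in double-mutant replicate 3, at 122 CPM, and Ly6g was at 3 counts or fewer in every sample. Border macrophage markers (8 genes) reached 12.8 CPM outside that sample and 56.5 CPM in it, and the T and NK cell list (6 genes) 12.6 CPM at most. Their part in the complement values was not tested. Astrocyte markers (7 genes) summed to 5180 to 11500 CPM in WT, 2840 to 7340 CPM in Jab1 mutants and 3520 to 9430 CPM in double mutants. The sums of 5 neuronal markers were 126 to 221, 186 to 639 and 197 to 621 CPM, and those of 5 oligodendrocyte progenitor markers 35.9 to 87.5, 61.3 to 142 and 32.6 to 82.2 CPM.

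C1q is assembled from equal numbers of its A, B and C chains, and the levels of their transcripts can be compared per length (TPM, from exon lengths in GENCODE). C1qb made up the largest share of the C1q transcripts in all samples but WT replicate 3 and double-mutant replicate 1, where C1qc did. Its share was 48.1% ± 7.77 (SD, n = 4) in WT, 58.2% ± 3.74 in Jab1 mutants and 48.9% ± 5.02 in double mutants. The Jab1-mutant range, 55.0% to 63.5%, lay above the WT range of 36.5% to 52.9% and the double-mutant range of 41.5% to 52.2%. The share of C1qc was 38.2% ± 5.05 in WT, 29.9% ± 4.18 in Jab1 mutants and 39.2% ± 4.99 in double mutants. C1qa was the smallest, at 13.7% ± 6.86, 11.8% ± 2.87 and 11.9% ± 2.31, and lowest in WT replicate 6 at 5.38%. These shares are descriptions without a test.

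**Figure D4:**
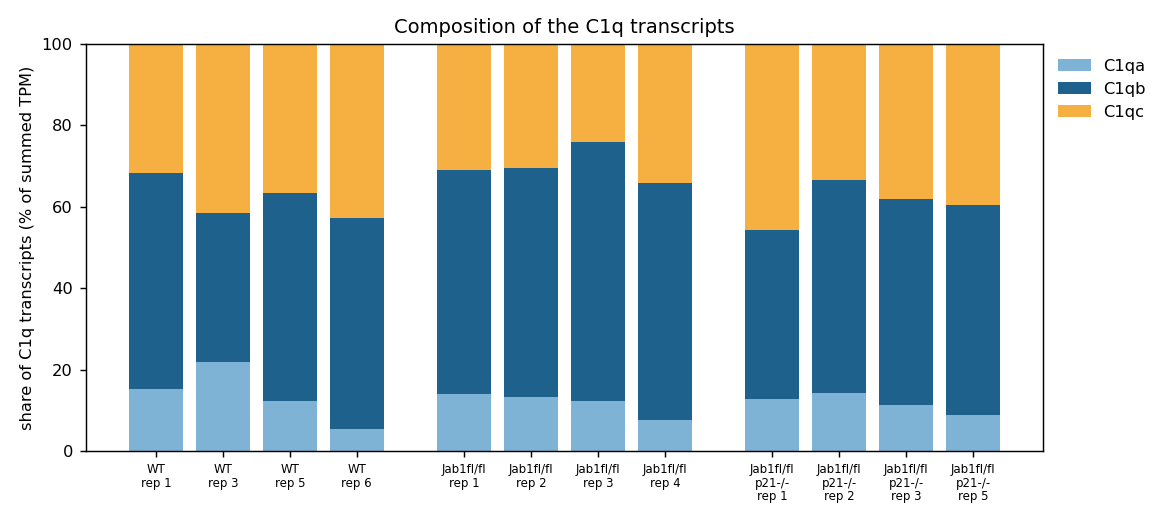
Share of C1qa, C1qb and C1qc in the summed TPM of the C1q genes, one bar for each of 12 samples. The share of C1qb was 55.0% to 63.5% in Cnp-Cre Jab1fl/fl and at most 52.9% in the other samples.

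On the same TPM scale the members differed widely in level. In Jab1 mutants, mean levels were 868 TPM ± 423 (SD, n = 4) for C1qb, 460 ± 277 for C1qc, 164 ± 53.7 for C1qa, 43.3 ± 18.6 for Serping1, 11 ± 3.55 for Itgb2, 10 ± 9.52 for C3ar1, 9.02 ± 6.39 for Itgam, 2.67 ± 4.11 for C5ar1 and 0.559 ± 0.593 for C3. The ranges of C1qb and C1qc overlapped, as did those of Itgb2, C3ar1, Itgam and C5ar1, and those of C5ar1 and C3. In WT, the same order held down to Serping1, with 45.3 TPM ± 25.7 for C1qb, 34.5 ± 19.1 for C1qc, 10.3 ± 4.23 for C1qa and 8.54 ± 0.745 for Serping1, and the remaining members had means of 0.680 TPM or less. Each neighbour in this order overlapped the next in WT.

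Likeness of pattern was measured as the root mean square difference of log2(CPM + 1), centred per gene, over the 12 samples. C1qb and C1qc were both nearest to Ctss, a lysosomal protease of microglia, with a difference of 0.27 each, against 2.5 and 2.35 for their own variation about the mean. Next came Tyrobp and Ly86 for both, and all 3 genes are on the microglia list used above. C1qa was nearest to the Fc receptor genes Fcgr3 (0.47) and Fcer1g (0.51) and to Ctss (0.54). Itgam was nearest to Ltc4s (0.35), Rgs2 (0.39) and Fgr (0.49), and Itgb2 to Rac2 (0.57), Cst7 (0.63) and Fcer1g (0.65). C3ar1 and C5ar1 had no close neighbour, the nearest being Cd72, Rgs10 and Ccl12 at 0.70 for C3ar1 and Ctsc and Chst7 at 0.86 and Oca2 at 0.95 for C5ar1. Serping1 was nearest to Igkc (0.42), Pik3r6 (0.44) and Msn (0.46). None of these was among the 3 nearest genes of another member, which held also for the nearest genes of Itgam, C3ar1 and C5ar1. Among the members, C1qb and C1qc were the closest pair (0.41), and C3ar1 and C5ar1 the most distant (1.83).

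The wider complement system was followed in 42 other genes, of which 22 passed the filter on low counts. In Jab1 mutants, 3 of the 22 were called higher than in WT, against 5.19% of all genes, and 0 lower, and the median log2 fold change was -0.02 against 0.02 over all genes. The calls comprised 1 of 9 tested regulators, Vtn, and 2 of 3 tested receptors, Itgax and Cd93. None of the 7 tested genes of the classical and lectin start was called, although their median log2 fold change was 1.58. Of these, C1ra, a gene for C1r, was higher in every Jab1 mutant than in every WT sample. Its log2 fold change was 3.26 (95% interval 1.1 to 5.43, adjusted p = 0.0702, edgeR), and 2 of 15 alternatives called it. Cfp of the alternative pathway was not called, nor were Hc and C8g of the terminal pathway. An unadjusted p under 0.05 in the higher direction was found for 5 of the 22, against 13.2% of all genes. Among the 20 genes that did not pass were Cfb, Cfd and Cfi, the terminal components C6, C7, C8a, C8b and C9, and the lectin genes Mbl1 and Mbl2. Some genes may have passed through mutant samples in which they were high. Itgax, for example, reached no more than 0.0105 CPM in WT. The counts of calls thus describe the 22 genes tested and not the wider system.

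Vtn, or vitronectin, an inhibitor of the terminal complex that is known in brain from pericytes, was at 164, 226, 98.0 and 159 CPM in WT, at 691, 717, 609 and 880 CPM in Jab1 mutants, and at 186, 287, 770 and 1220 CPM in double mutants (log2 fold change in Jab1 mutants 2.28 ± 0.33, adjusted p = 0.00365, edgeR). Cd93, a C1q-binding receptor best known from endothelium, was at 12.9, 8.70, 4.91 and 13.1 CPM in WT and at 84.3, 11.2, 52.8 and 102 CPM in Jab1 mutants, and Jab1-mutant replicate 2, which had the lowest endothelial marker sum of its group, lay within the WT range. It was called (log2 fold change 2.78 ± 0.61, adjusted p = 0.0199, edgeR), but not without WT replicate 3, WT replicate 5 or Jab1-mutant replicate 4, with adjusted p of 0.0678, 0.0582 and 0.0551, nor with all 12 samples in one fit (adjusted p = 0.065). In double mutants Cd93 was at 14.1, 7.12, 65.9 and 119 CPM.

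Itgax, the alpha chain of complement receptor 4 and the gene of CD11c, was near 0 in WT, with 1, 0, 1 and 0 counts. It was at 14.0, 8.17, 27.2 and 12 CPM in Jab1 mutants and at 0.194, 4.11, 9.20 and 7.75 CPM in double mutants, both groups above WT in every sample. Pooled over samples, the ratio to WT was 3140 in Jab1 mutants (95% interval 868 to 25900, from 5038 and 2 counts) and 1180 in double mutants (327 to 9760, from 2255 and 2 counts), intervals that cover counting error only. Jab1 mutants were called (adjusted p = 0.000452, edgeR) and double mutants were not (adjusted p = 0.0508, edgeR). Of 15 alternatives, 5 called Itgax in double mutants and 10 did not. The adjusted p was 3.98e-09 by DESeq2, 0.00744 with all 12 samples in one edgeR fit and 0.0493 with upper-quartile factors in edgeR. Per 100 CPM of microglia markers, Itgax was at 0.519 to 1.5 CPM in Jab1 mutants and 0.0464 to 0.483 CPM in double mutants, ranges that did not overlap, and double-mutant replicate 3, highest of all samples in C1q, was at 0.0534. The difference between the mutant groups in CPM was not called (log2 fold change -1.58, 95% interval -3.57 to 0.42, adjusted p = 0.996, edgeR).

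Among the other complement genes with high mean levels, Vtn and Cd93 were called in Jab1 mutants, as given above, and Clu, C4b, Cd59a, Cr1l, Masp1 and Cd46 were not. Clu, or clusterin, averaged 3510 CPM in WT, 2950 CPM in Jab1 mutants and 3750 CPM in double mutants (log2 fold change in Jab1 mutants -0.14, 95% interval -0.89 to 0.61, adjusted p = 0.864, edgeR). Cd59a, an inhibitor of the membrane attack complex, and Cr1l, or Crry, an inhibitor of the C3 convertase, had log2 fold changes of 0.53 (-0.40 to 1.46) and -0.18 (-0.82 to 0.46), and Masp1, a protease of the lectin pathway, of -0.73 (-1.94 to 0.49). Cd46, a cofactor for the cleavage of C3b, was at -0.39 (-1.41 to 0.63). C4b, the target of C1s, was at 26.8, 104, 20 and 25.3 CPM in WT, at 107, 209, 119 and 163 CPM in Jab1 mutants, and at 300, 399, 87.7 and 104 CPM in double mutants. Every Jab1 mutant exceeded every WT sample, but WT replicate 3 was close, and the call was missed (log2 fold change 1.87 ± 0.52, adjusted p = 0.0508, edgeR). Of 16 alternatives, 6 called C4b in Jab1 mutants and 10 did not. The adjusted p was 0.00468 without WT replicate 3 (edgeR), 0.00123 by DESeq2, 0.00133 by limma-voom and 0.413 with the replicate block (edgeR). Double-mutant replicates 1 and 2, the lowest of their group in C1qb, were the highest of the 12 samples in C4b, and replicate 3, the highest in C1q, had the lowest C4b of its group. C4b and C4a are near copies, as are Cd59a and Cd59b, and their counts are uncertain to the extent that reads were shared. Against WT, 0 of the 22 other genes were called in double mutants by edgeR and 5 had an unadjusted p under 0.05 in the higher direction, against 0.175% and 7.82% of all genes, with a median log2 fold change of 0.27. Without double-mutant replicate 3, 4 had an unadjusted p under 0.05, against 6.09% of all genes, and the median was 0.08.

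**Figure D5:**
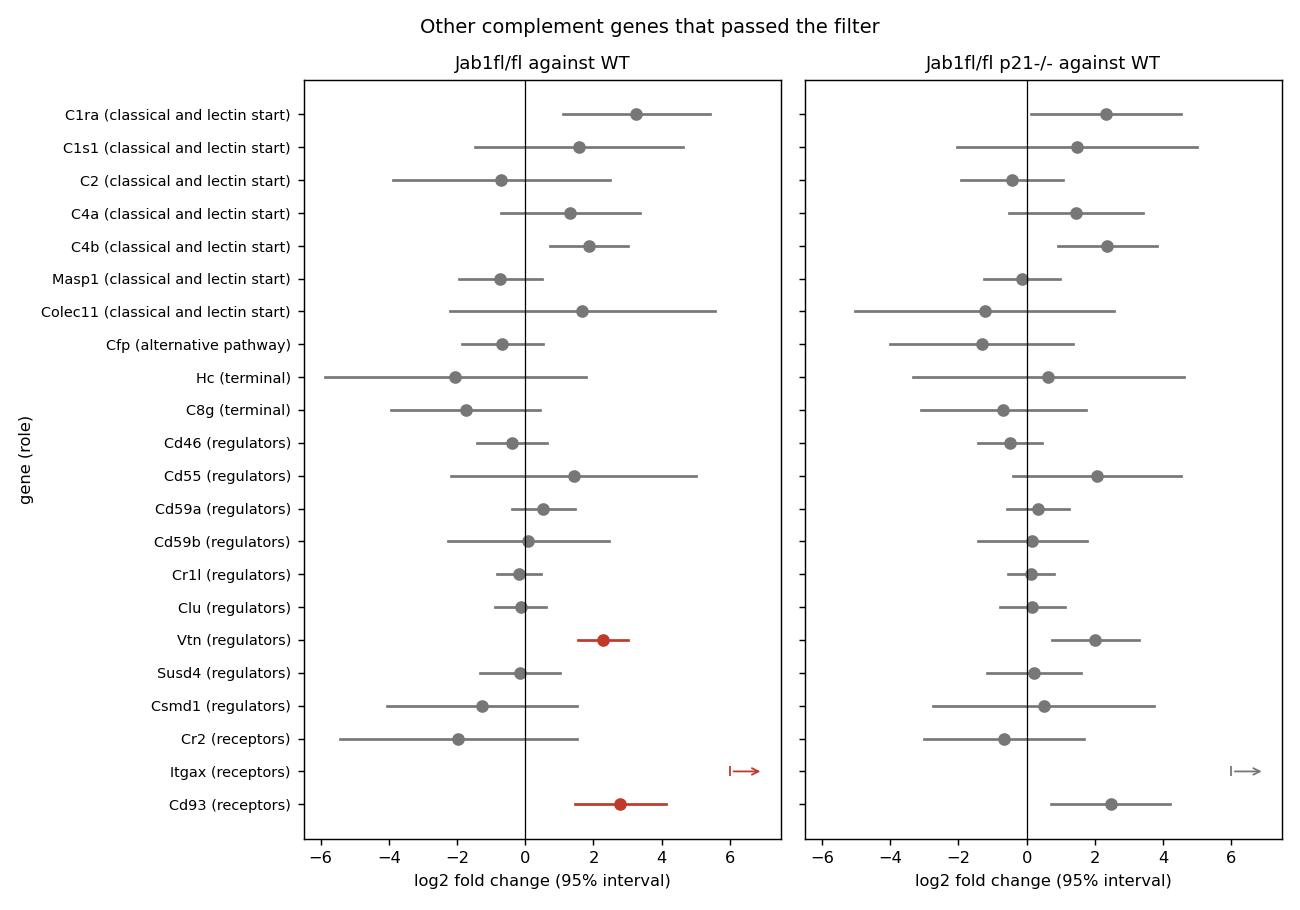
Log2 fold changes against WT with 95% intervals for the 22 other complement genes tested, in Cnp-Cre Jab1fl/fl (left) and Cnp-Cre Jab1fl/fl p21CIP1-/- (right), red where the adjusted p was under 0.05. Itgax, with 2 counts in WT, is drawn as an arrow because its fitted value is no estimate, and Vtn, Itgax and Cd93 were called on the left.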

How the data were processed

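Counts were analysed in 12 samples, grouped by the genotype in their labels. The values are the raw counts per gene symbol that the authors deposited. Per the study's methods and the submitters' processing notes, the authors made libraries with a SMART-Seq v4 kit, and used Trimmomatic 0.32 for trimming of the paired reads, STAR 2.5.3a for alignment to GRCm38 and featureCounts for counting on a GENCODE basic annotation. Use of strand and of reads with several matches is not given in the sources used here. The table had 0 entries without a gene.

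CPM carry TMM factors estimated over the 12 samples together. Each comparison was fitted on its own 8 samples with the quasi-likelihood method of edgeR 4.0.16 (R 4.3.3). Genes entered (17716) if 4 samples or more reached 1 CPM, and p-values were adjusted over all of these by the Benjamini-Hochberg method. A gene was "called" at an adjusted p under 0.05. SE and intervals come from the same fit. TPM and positions rest on GENCODE M21 (GRCm38), which gave an exon length for 98.2% of symbols. The alternatives were DESeq2 1.42.0, upper-quartile factors, size factors from DESeq2 within edgeR, omission of the filter, a filter at a mean of 10 CPM, a joint fit of the 3 genotypes, a block for replicate number, limma-voom with quality weights (limma 3.58.1), and omission of each sample in turn. The scripts were tested on simulated data.

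The smallest chi-square per degree of freedom between replicates was 210, so no pair was treated as the same library. The labels do not say that samples came from separate litters or sorts, so the p-values measure the spread between these samples. Intervals on counts cover counting error only. Named in the text are all 9 members, the other complement genes called in any comparison, the 8 of them with the highest mean CPM, and the 3 genes most like each member. C1ra was added to these with its values known. 1 gene of the wider complement list is not reported here and enters none of its counts. The members, lists, motifs and tests were chosen with earlier results of these data known.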

Additional observations from a re-analysis of the deposited data

Results flagged for a closer look

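In a group of 4 samples, the highest or lowest sample was picked out where its gap to the nearest other sample, divided by the range of the group, exceeded the 95% critical value of Dixon's test. Of 57 groups examined, over the 9 members, the 9 other complement genes named and the summed microglia markers, 14 held such a sample, 12 of them among the members. For normally distributed values, chance picks out about 1 group in 20. CPM are skewed and some are 0, so that rate need not hold here. Every sample picked out was the highest of its group. The groups are not independent, since the genes vary together. In 8 of the 14 the sample was double-mutant replicate 3. Its gap, as a share of the range of the double mutants, was 0.929 for C1qa (836 CPM, next 77.8), 0.893 for C1qb (3870, next 473), 0.899 for C1qc (3230, next 400), 0.972 for C3 (0.736, next 0.0205), 0.867 for C3ar1 (106, next 16.8), 0.87 for C5ar1 (59.1, next 7.65) and 0.844 for Itgb2 (136, next 21.5). The summed microglia markers of the same sample had a gap of 0.914 (17200 CPM, next 1870).

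In Jab1 mutants, C3ar1 was far higher in replicate 4 than in the others (47.5 CPM, next 12.2, gap 0.916), and C5ar1 in replicate 1 (13.2 CPM, next 1.62, gap 0.878). In WT, C3ar1 was highest in replicate 5 (2.26 CPM, next 0.340, gap 0.858), C5ar1 had counts in replicate 1 alone (1.42 CPM, next 0, gap 1.0), Itgb2 was near 0 outside replicate 6 (1.96 CPM, next 0.0189, gap 0.99), and C4b was highest in replicate 3 (104 CPM, next 26.8, gap 0.919). These WT samples differ from gene to gene.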

How the results depend on the processing

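In Jab1 mutants against WT, 5 to 7 members and 2 to 5 other complement genes were called over the 16 alternatives, against 6 and 3, the 5 by DESeq2. In double mutants against WT, where 0 members were called, DESeq2 called 5, and 3 were called with a filter at a mean of 10 CPM and also 3 with all 12 samples in one fit. Leaving out a sample gave 0 to 4, the 4 without double-mutant replicate 1. Of the other complement genes 0 were called in that comparison, 4 by DESeq2, 1 each with upper-quartile factors, DESeq2 size factors, one fit or limma-voom, and 0 to 1 when a sample was left out. Between the mutant groups 0 members were called in every alternative.

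Over all genes, 660 to 2689 were called in Jab1 mutants against WT (main 1354), 1 to 862 in double mutants against WT (main 34), and 0 to 87 between the mutant groups (main 0).

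The replicate numbers did not pair the samples: deviations of same-numbered samples correlated at -0.19 to 0.08 over 8 pairs. With the replicate number as a block, 6, 0 and 0 members and 2, 0 and 0 other complement genes were called in the 3 comparisons. Over all genes, the block fit called 660 in Jab1 mutants against WT and 1 in double mutants against WT. In Jab1 mutants Serping1 and Vtn were not called with the block (adjusted p = 0.0573 and 0.07, edgeR) whereas Itgb2 was (adjusted p = 0.0011, edgeR). Only samples whose number occurs in both genotypes inform such a fit, which for Jab1 mutants against WT are numbers 1 and 3. WT replicate 6, which held nearly all WT counts of Itgb2, thus had no part in that call.

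Some log2 fold changes that were not called changed sign. In Jab1 mutants against WT, Cr1l became 0.16 with the block. In double mutants against WT, Clu became -0.08 by limma-voom, and over the left-out samples Clu ranged from -0.19 to 0.41, Cr1l from -0.07 to 0.28 and Masp1 from -0.54 to 0.24. Between the mutant groups, Cd46 became 0.15 with the block, and limma-voom gave -0.17 for C1qb, -0.14 for C3ar1 and -0.42 for Itgb2. Over the left-out samples there, C1qa ranged from -0.70 to 1.98, C1qb from -0.86 to 1.76, C1qc from -0.35 to 2.30, C3ar1 from -1.08 to 1.68, Itgb2 from -0.27 to 1.89 and Clu from -0.02 to 0.57, each lowest without double-mutant replicate 3. Itgam ranged from -1.46 to 0.40, Vtn from -0.84 to 0.05, Cd93 from -1.15 to 0.06, and Cd46 from -0.27 to 0.15. The cause of these changes was not tested. C3, C5ar1 and Itgb2 rest on few or no counts in most WT samples, which limits any fold for them.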
